A study of Homo sapiens with 12 samples.

Results

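The genes described are *PARP8*, *PARP9*, *PARP10*, *PARP11*, *PARP12*, *PARP14* and *DTX3L*, 6 ADP-ribosyltransferase genes linked to interferon and the ubiquitin ligase gene that pairs with *PARP9*. They were taken by name from the deposited expression table, where all 7 were found among 45416 genes. Their levels were measured by poly(A) RNA-seq in 12 libraries of U251, an established human glioblastoma cell line. The cells were transfected with a control siRNA (siNC) or with either of the *PD-L1* siRNAs, siPDL1-1 and siPDL1-2. After 48 h they were left unstimulated or were given interferon gamma (IFNγ) at 100 U/ml for 24 h, and each of the 6 conditions had 2 libraries. The labels give siNC cells as WT and the others as PD-L1 knockdown. All cells carried a transfected siRNA, so untransfected cells were not part of the comparison. The methods describe the libraries of a condition as coming from independent experiments, and the labels do not tie a library to an experiment.

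Poly-ADP-ribose polymerases, or PARPs, transfer ADP-ribose from NAD to proteins, and most of the interferon-linked members add single units rather than chains. *PARP9* and *PARP14* proteins also bind ADP-ribose through macrodomains, and DTX3L is a Deltex-family E3 ubiquitin ligase that forms a complex with PARP9. IFNγ signals through the kinases JAK1 and JAK2 to gamma-activated sites (GAS) in promoters, whereas type I interferons act mainly through interferon-stimulated response elements (ISRE).

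*PARP9*, *DTX3L* and *PARP14* lie together on chromosome 3 of GRCh38, in the coordinates of the deposited table. *PARP9* (ENSG00000138496) lies on the minus strand at chr3:122527924-122564577. *DTX3L* (ENSG00000163840) lies on the plus strand at chr3:122564338-122575203, so the 5′ ends of this pair overlap by 240 bases. *PARP14* (ENSG00000173193) follows on the plus strand at chr3:122680839-122730840. Of the other members, *PARP8* (ENSG00000151883) at chr5:50665899-50846519, *PARP12* (ENSG00000059378) at chr7:140023749-140062951 and *PARP11* (ENSG00000111224) at chr12:3791047-3873448 lie apart. Reads were not separated by strand in the counting. *PARP9* and *DTX3L* share 139 exonic bases, which is 1.56% of *PARP9* exon and 2.41% of *DTX3L* exon.

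The promoters of *DTX3L*, *PARP14* and *PARP12* are shown because each holds an ISRE core in the 100 bases printed. The core was taken as GAAA, any 2 bases and GAAA again, and was searched on both strands. RefSeq promoter windows of GRCh38.p14, from 250 bases before to 50 after a start, were matched for 6 of the 7 members, with 9 windows in all. *PARP10* had no window, so its promoter was not searched. The stretches run 5′ to 3′ along the gene, with 90 bases before the start and 10 from it, and capitals mark the ISRE core on either strand and, in *PARP14*, also the GAS pattern TTCNNNGAA just before it.
DTX3L promoter, chr3:122564248-122564347, plus strand: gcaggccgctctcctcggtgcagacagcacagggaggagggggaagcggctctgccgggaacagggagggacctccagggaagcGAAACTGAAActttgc
PARP14 promoter, chr3:122680749-122680848, plus strand: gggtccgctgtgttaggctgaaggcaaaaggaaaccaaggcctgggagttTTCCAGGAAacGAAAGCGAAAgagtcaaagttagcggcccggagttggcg
PARP12 promoter, chr7:140062942-140063041, minus strand: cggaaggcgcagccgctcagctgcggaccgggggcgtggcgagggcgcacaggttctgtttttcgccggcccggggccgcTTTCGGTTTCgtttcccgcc
The 10 bases of the *DTX3L* core, chr3:122564332-122564341, also lie in a *PARP9* window, chr3:122564251-122564550 on the minus strand, so the pair shared a single match. The core was not found in the *PARP11* window, the 3 *PARP8* windows or the other *PARP9* window. Of the 9 windows, only that of *PARP14* held the GAS pattern. Of 35116 RefSeq windows of the same length, 3.57% held the ISRE core, 7.66% held the GAS pattern and 0.439% held both, as *PARP14* did. These are matches of letters, and binding at them was not measured.

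The libraries held between 17101069 and 55657393 reads on genes, recovered from the deposited CPM (read counts scaled by library size). The members were counted deeply, from 135 reads for *PARP8* in its lowest library to 51146 reads for *PARP14* in its highest. The glial tumour markers *VIM*, *CD44*, *NES*, *SOX2*, *EGFR* and *FABP7* stood at 52.7 CPM or above in every library, while *GFAP* and *S100B* were between 1.92 and 7.25 CPM and *OLIG2* did not exceed 0.359 CPM. Of 10 markers of other cell types, 9 did not exceed 0.671 CPM, and *CD68* was at 28.2 to 80.2 CPM. The targeted gene, *CD274* (PD-L1), was at 4.60 and 4.91 CPM in unstimulated siNC libraries, 2.67 and 2.73 with siPDL1-1 and 3.57 and 3.45 with siPDL1-2. After IFNγ it was at 71.2 and 76.0 CPM with siNC, 60.9 and 66.7 with siPDL1-1 and 37.5 and 35.0 with siPDL1-2. The mRNA after IFNγ was thus lower by a called amount only with siPDL1-2 (0.493 of siNC, FDR 2.79e-05 by limma), and siPDL1-1 did not pass there (FDR 0.0604). In bulk RNA, fewer cells expressing a gene and less RNA per cell cannot be told apart.

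IFNγ raised all 7 genes in control siRNA cells, from 1.88-fold for *PARP11* to 10.5-fold for *PARP14* as ratios of mean CPM. A gene was called when its limma FDR was under 0.01 and its fold change over 1.5. For the call and the log2 fold changes, the fold change was taken on log2(CPM + 1), which understates the change of low genes. All 7 members passed, against 6.67% of 17982 genes tested that were called higher, and none overlapped between the groups, against 36.7% of genes. The 3 neighbours on chromosome 3 had the largest changes of the 7, then *PARP12* and *PARP10*, then *PARP11* and *PARP8*.

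*PARP14*, a macrodomain mono-ADP-ribosyltransferase known as a STAT6 co-factor, was at 91.9 and 92.3 CPM in unstimulated siNC libraries and at 958 and 966 CPM after IFNγ (log2 fold change 3.37 ± 0.04 SE, FDR 2.39e-18). *PARP9*, a macrodomain protein with little transferase activity of its own, went from 29.7 and 28.5 to 198 and 206 CPM (2.75 ± 0.05, FDR 3.33e-16). *DTX3L*, its ligase partner, went from 38.4 and 37.9 to 206 and 211 CPM (2.42 ± 0.05, FDR 3.45e-15). For these neighbours the stimulated and unstimulated libraries were far apart, and replicates differed by much less than the change.

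*PARP12*, a zinc-finger transferase with antiviral activity, was at 18.4 and 18.7 CPM and rose to 64.6 and 65.6 CPM (1.76 ± 0.06, FDR 1.2e-12). *PARP10*, described originally as a MYC-binding transferase, was at 11.1 and 13.0 CPM and rose to 46.3 and 38.0 CPM (1.72 ± 0.12, FDR 2.18e-07). *PARP10* had the largest standard error of the 7. It lies at chr8:143977153-144012772 on the minus strand (ENSG00000178685) and shares 324 exonic bases, or 5.37% of its exon, with *GRINA* on the opposite strand. *GRINA* was between 41.6 and 59.98 CPM in the 12 libraries and had a log2 fold change of 0.02 here. It was higher with IFNγ in siPDL1-1 cells (0.30, FDR 0.00424) and siPDL1-2 cells (0.20, FDR 0.0453). After IFNγ it was higher with siPDL1-1 than with siNC (0.39, FDR 0.00627). None of these was called, and the part of shared bases in the *PARP10* reads was not tested.

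*PARP11*, a transferase of the nuclear envelope, was at 6.95 and 8.63 CPM and rose to 14.3 and 14.9 CPM (0.83 ± 0.11, FDR 1.73e-05). *PARP8*, another mono-ADP-ribosyltransferase, was at 6.61 and 5.82 CPM and rose to 11.1 and 12.3 CPM (0.82 ± 0.09, FDR 4.32e-06). These were the least abundant members and their changes were under 2-fold, although no stimulated library overlapped an unstimulated one.

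**Figure D1:**
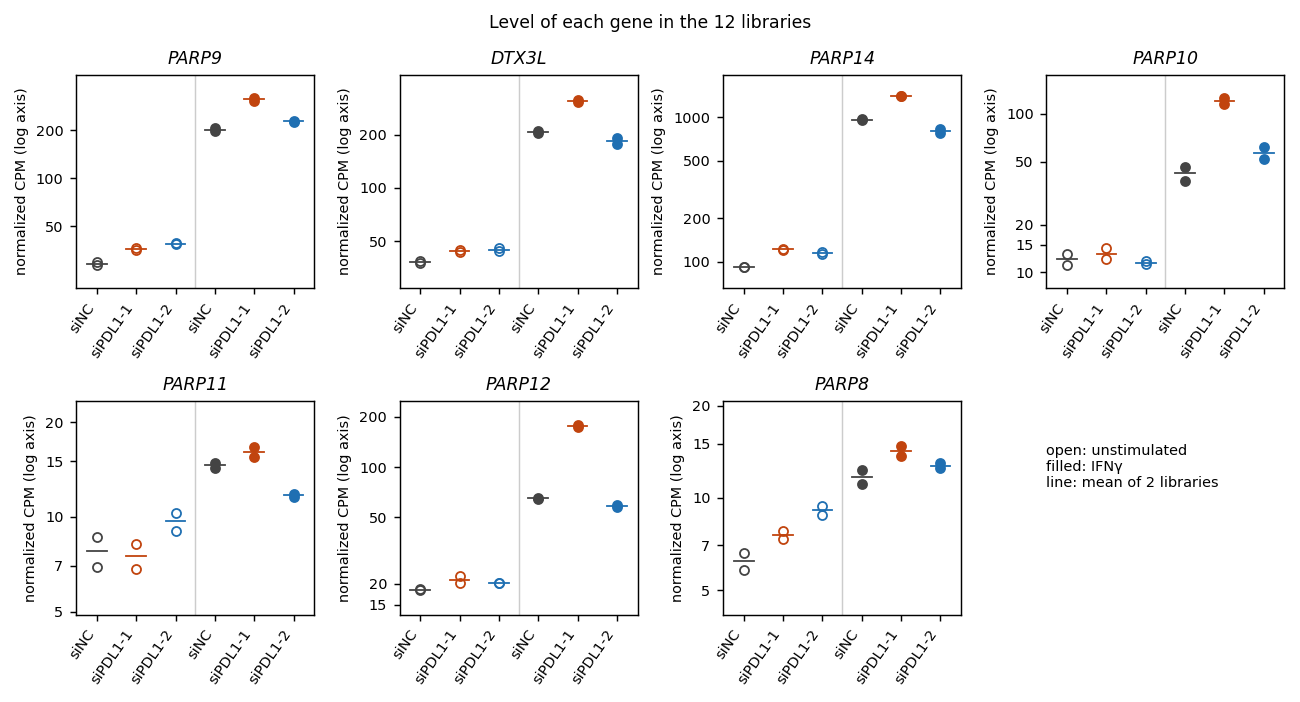
Normalized CPM (log axis, a separate range in each panel) of each gene in the 12 libraries, with open points for unstimulated and filled points for IFNγ-stimulated cells and a line at the mean of 2 libraries. In every panel the siPDL1-1 libraries after IFNγ are the highest, up to 1407 CPM for *PARP14* and 127 CPM for *PARP10*.

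With either *PD-L1* siRNA most of these genes also rose with IFNγ. With siPDL1-1 all 7 members were called higher after IFNγ, against 5.58% of all genes tested, none overlapped between the groups (31.5% of all genes), and their log2 fold changes ran from 0.83 for *PARP8* to 3.51 for *PARP14*. With siPDL1-2, 5 of 7 were called higher, against 3.62% of all genes, and the 2 that were not called were *PARP11* and *PARP8*. FDR values of the called members were between 1.6e-18 and 3.88e-06 with siPDL1-1 and between 3.42e-17 and 2.44e-08 with siPDL1-2.

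In siPDL1-1 cells *PARP14* went from 123 and 122 CPM to 1401 and 1407 CPM. *PARP9* went from 36.3 and 35.6 to 307 and 320.0 CPM (log2 fold change 3.09), and *DTX3L* from 44.8 and 43.3 to 307 and 313 CPM (2.79). Replicates of both genes differed by far less than this increase. *PARP12* went from 22.2 and 20.3 to 178 and 173 CPM (2.99). *PARP10* went from 14.2 and 12.1 to 127 and 116 CPM (3.11). *PARP12* and *PARP10* thus changed by about as much as *PARP9* with this siRNA. *PARP11* went from 6.85 and 8.21 to 15.5 and 16.7 CPM (1.01), and *PARP8* from 7.77 and 7.34 to 13.7 and 14.8 CPM (0.83).

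In siPDL1-2 cells *PARP14* went from 117 and 113 CPM to 822 and 779.9 CPM (2.79). *PARP9* went from 38.4 and 39.3 to 229 and 227 CPM (2.52), and *DTX3L* from 45.6 and 44.04 to 192 and 177 CPM (2.01). The stimulated *DTX3L* libraries were the lowest of the stimulated conditions, and those of *PARP9* were not. *PARP10* went from 11.2 and 11.9 to 51.6 and 62.0 CPM (2.20). *PARP12* went from 20.3 and 20.2 to 59.5 and 57.8 CPM (1.49). *PARP11* was at 10.3 and 9.03 CPM before and at 11.8 and 11.6 CPM after IFNγ (0.26, FDR 0.0843). *PARP8* was at 8.77 and 9.43 CPM before and at 12.5 and 13.0 CPM after (0.44, FDR 0.00199, under the fold threshold). Neither overlapped between the groups, but libraries that do not overlap in the higher direction were found for 30.8% of all genes in this comparison.

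**Figure D2:**
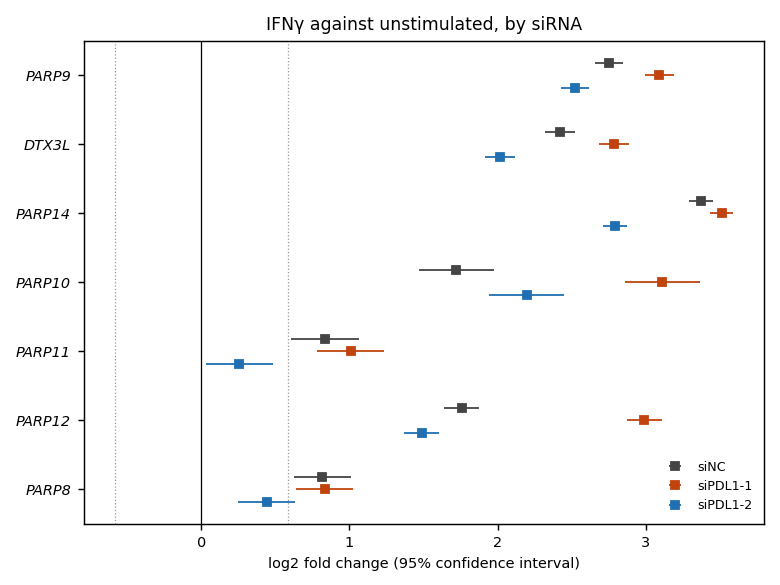
Log2 fold change of IFNγ-stimulated against unstimulated cells for each gene, with 95% confidence intervals from limma, for siNC, siPDL1-1 and siPDL1-2 (dotted lines at a fold change of 1.5). *PARP10* and *PARP12* have the widest gap between siPDL1-1 (3.11 and 2.99) and siNC (1.72 and 1.76), while *PARP11* with siPDL1-2 (0.26) lies inside the dotted lines.

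Per length of exon, the order of the genes was nearly the same in every condition. In unstimulated siNC cells *PARP14* was at 8.96 ± 0.03 CPM per kb of merged exon (SD, n = 2), *DTX3L* at 6.61 ± 0.07, *PARP12* at 3.36 and *PARP9* at 3.26 ± 0.10. *PARP10* was at 2.00, *PARP11* at 1.26 and *PARP8* at 0.615 CPM per kb. After IFNγ *PARP14* was at 93.6 CPM per kb in siNC cells, 136.6 in siPDL1-1 cells and 77.9 in siPDL1-2 cells, the highest of the 7 each time. After IFNγ *PARP9* was above *PARP12*, at 22.6 against 11.8 CPM per kb in siNC cells and 35.1 against 31.9 in siPDL1-1 cells. In unstimulated cells they were close, and *PARP9* was the higher with siPDL1-1 (4.02 against 3.86 CPM per kb) and siPDL1-2 (4.35 against 3.68).

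Without IFNγ, the *PD-L1* siRNAs left all 7 members within a fold change of 1.5 of the control, although several small differences passed the FDR. With siPDL1-1, 0 of 7 members were called, against 4% of all genes in either direction, and 5 had an unadjusted p under 0.05, against 38.9% of all genes. Neither edgeR's quasi-likelihood test nor DESeq2 called a member in any unstimulated comparison. *PARP14* was 0.40 higher on the log2 scale (FDR 1.49e-06), *PARP9* 0.29 (FDR 0.000166) and *DTX3L* 0.20 (FDR 0.00489). Libraries did not overlap for 5 of 7 members, which were these genes, *PARP12* and *PARP8*. All 5 were higher, against 35.6% of all genes. *PARP12* (0.19), *PARP8* (0.25), *PARP10* (0.12) and *PARP11* (-0.04) had FDR values of 0.019 or more.

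With siPDL1-2, 0 of 7 were called, against 6.17% of all genes, and 6 had an unadjusted p under 0.05, against 48.2%. *PARP8* had the largest difference, 0.49 on the log2 scale (FDR 0.000563), followed by *PARP9* at 0.40 (FDR 6.71e-06), *PARP14* at 0.31 (FDR 1.23e-05) and *DTX3L* at 0.23 (FDR 0.00145). *PARP11* was 0.28 higher (FDR 0.0445), *PARP12* 0.12 higher and *PARP10* 0.05 lower (-0.05, FDR 0.748). Between the siRNAs without IFNγ, 0 of 7 members were called, against 4.35% of all genes, and 4 had an unadjusted p under 0.05, against 44.7%. The largest of these differences was in *PARP11*, at -0.32 for siPDL1-1 minus siPDL1-2 (95% interval -0.55 to -0.10, FDR 0.0259).

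After IFNγ, the siRNAs parted. *PARP10*, *PARP12* and *PARP9* rose with siPDL1-1 over siNC, and no member was called with siPDL1-2. These comparisons share the siNC libraries, so their values are set side by side and not correlated. The 3 of 7 called with siPDL1-1 stand against 3.76% of 17148 genes called higher. As ratios of mean CPM, *PARP10* was 2.87-fold higher (log2 fold change 1.51 ± 0.11 SE, FDR 1.56e-05) and *PARP12* 2.70-fold higher (1.42 ± 0.06, FDR 5.5e-08). *PARP9* was 1.55-fold higher in the same measure (0.63 ± 0.05, FDR 1.58e-05). *DTX3L* (0.57, FDR 5.14e-05) and *PARP14* (0.54, FDR 2.19e-05) passed the FDR at fold changes just under 1.5, and *DTX3L* was called with edgeR's quasi-likelihood test (0.59) and without the second stimulated siNC library (0.59). *PARP8* (0.26, FDR 0.0587) and *PARP11* (0.13, FDR 0.287) did not pass.

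With siPDL1-2 after IFNγ, 0 of 7 members were called, against 2.91% of all genes, 6 had an unadjusted p under 0.05, against 35.8%, and edgeR and DESeq2 called 0. *PARP14* was at 822 and 779.9 CPM against 958 and 966 CPM with siNC (log2 fold change -0.26, FDR 0.00405). *DTX3L* was at -0.18 (FDR 0.0476) and *PARP9* at 0.17 (FDR 0.0413), so the paired genes had opposite signs. *PARP10* was at 0.42 (FDR 0.0241), *PARP11* at -0.30 (FDR 0.0335), *PARP12* at -0.15 (FDR 0.0937) and *PARP8* at 0.11 (FDR 0.433). Libraries of the groups did not overlap for 3 members in the higher and 4 in the lower direction, against 31% and 34.9% of all genes.

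The difference between the siRNAs after IFNγ was itself tested. For 4 of 7 members siPDL1-1 was called higher than siPDL1-2, against 1.73% of all genes. *PARP12* differed by 1.57 on the log2 scale (95% interval 1.44 to 1.70, FDR 2.58e-08), *PARP10* by 1.08 (0.83 to 1.33, FDR 0.000271), *PARP14* by 0.81 (FDR 1.49e-06) and *DTX3L* by 0.75 (FDR 1.36e-05). *PARP9* differed by 0.46 (FDR 0.000339) and *PARP11* by 0.43 (FDR 0.00999), both under the fold threshold. *PARP8* differed by 0.15 (95% interval -0.06 to 0.36).

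With both siRNAs pooled against siNC after IFNγ, 0 of 7 members were called, against 1.74% of all genes, 1 had an unadjusted p under 0.05, against 29.6%, and edgeR and DESeq2 called 0. *PARP10* had a pooled log2 fold change of 0.96 (95% interval -0.22 to 2.15) and *PARP12* of 0.63 (-1.13 to 2.40). In this fit the difference between the siRNAs counts as spread within the pooled group. When the spread was estimated from all 12 libraries as 6 groups, *PARP10* and *PARP12* were called, at the same log2 fold changes.

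**Figure D3:**
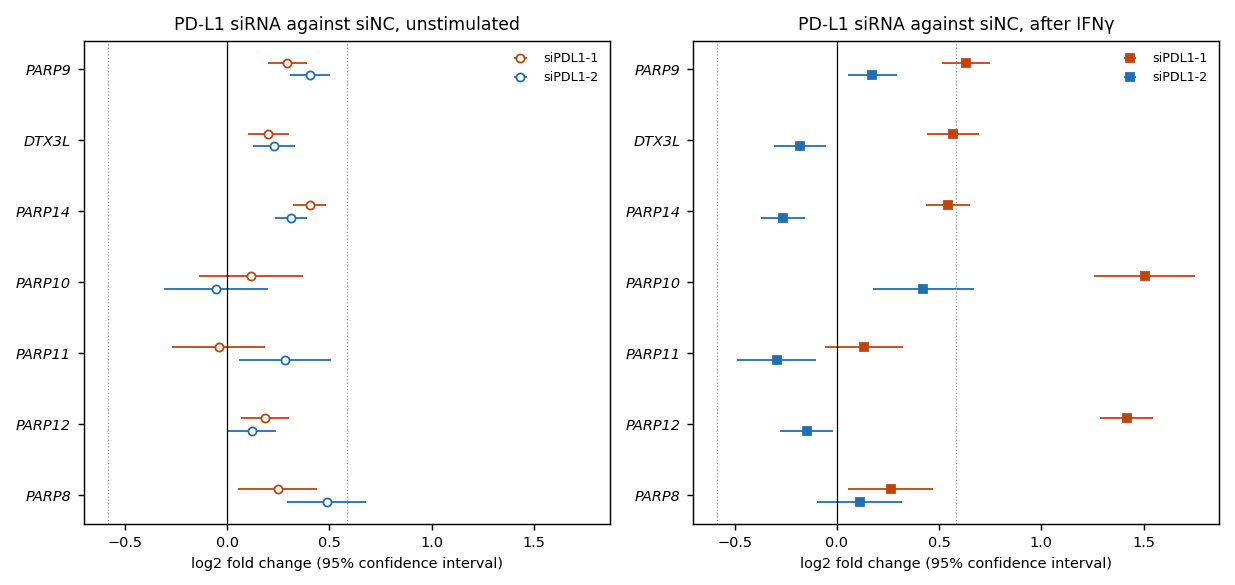
Log2 fold change of each *PD-L1* siRNA against siNC with 95% confidence intervals from limma, in unstimulated cells (left, open circles) and after IFNγ (right, squares), with dotted lines at a fold change of 1.5. Without IFNγ every point lies inside the dotted lines. After IFNγ *PARP10* (1.51) and *PARP12* (1.42) stand apart for siPDL1-1, and every siPDL1-2 point lies between -0.30 and 0.42.

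The IFNγ response of *PARP10* and *PARP12* was larger with siPDL1-1 than with siNC, by a test of the difference of the effects over all 12 libraries. The differences were 1.39 ± 0.16 (SE, FDR 0.00031) for *PARP10* and 1.23 ± 0.08 (FDR 6.86e-08) for *PARP12* on the log2 scale, and these 2 of 7 were called higher, against 0.89% of all genes. *DTX3L* (0.37, FDR 0.00532) and *PARP9* (0.34, FDR 0.00634) passed the FDR only. *PARP14* (0.14), *PARP11* (0.17) and *PARP8* (0.02, 95% interval -0.26 to 0.29) did not pass. The median of the 7 was 0.34, beside -0.02 over all genes tested.

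With siPDL1-2 the differences of the IFNγ effect were negative for 6 members and positive for *PARP10*. None was called by limma, edgeR or DESeq2, against 7.62% of all genes in either direction, and all 7 had an unadjusted p under 0.05, against 39.6% of all genes. *PARP14* (-0.58, FDR 2.4e-05), *PARP11* (-0.58, FDR 0.00957) and *DTX3L* (-0.41, FDR 0.000535) passed the FDR with fold changes just under or under 1.5. *PARP8* was at -0.38 (FDR 0.0383), *PARP12* at -0.27 (FDR 0.0168), *PARP9* at -0.23 (FDR 0.0133) and *PARP10* at 0.48 (FDR 0.0461). *PARP14* was called without the second unstimulated (-0.60) or the first stimulated (-0.62) siPDL1-2 library, and *PARP11* without the second unstimulated siNC library (-0.72).

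*PARP9* and *DTX3L* start head to head, and the ratio of their reads within a library needs no normalization. The ratio was 0.773 and 0.753 in unstimulated siNC libraries and 0.962 and 0.975 after IFNγ. It was 0.810 and 0.821 with siPDL1-1 and 1.00 and 1.02 after IFNγ. It was 0.842 and 0.893 with siPDL1-2 and 1.196 and 1.282 after IFNγ. The ratio was higher after IFNγ in all 3 siRNA groups, without overlap, so *PARP9* reads increased more than *DTX3L* reads. The mean log2 difference was 0.39 (two-sided exact permutation p = 0.00926 over 216 arrangements within siRNA groups, the smallest p they can give).

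*PARP14*, the third gene of the region, was compared with *PARP9* in the same way. The ratio of *PARP14* to *PARP9* reads was 3.09 and 3.24 in unstimulated siNC libraries and 4.84 and 4.69 after IFNγ. It was 3.38 and 3.42 with siPDL1-1 and 4.557 and 4.395 after IFNγ. It was 3.03 and 2.86 with siPDL1-2 and 3.59 and 3.44 after IFNγ. The shift was in the same direction in each group (mean log2 difference 0.41, two-sided exact permutation p = 0.00926), and it was smallest with siPDL1-2. These 2 ratios were the only ones tested, and their Benjamini-Hochberg adjusted value is also 0.00926.

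**Figure D4:**
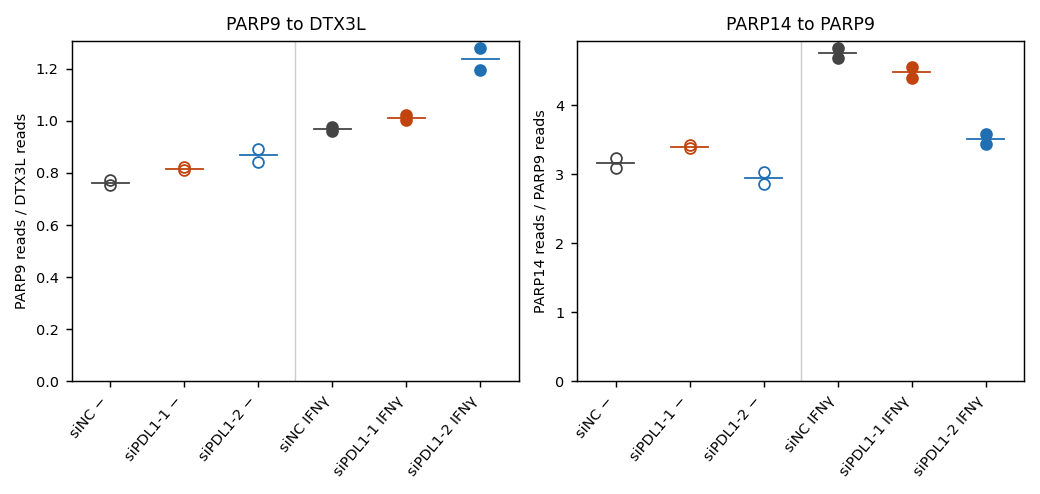
Ratio of *PARP9* to *DTX3L* reads (left) and of *PARP14* to *PARP9* reads (right) in each of the 12 libraries, with axes from 0, open points for unstimulated and filled points for IFNγ-stimulated cells and a line at the mean of 2 libraries. Both ratios are higher after IFNγ with each siRNA, and *PARP9* to *DTX3L* is highest with siPDL1-2, at 1.196 and 1.282.

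Other genes of the region were not called higher with IFNγ. The *PARP15* gene, between *DTX3L* and *PARP14* at chr3:122577628-122639047, averaged 0.629 CPM and was not called in any comparison. *KPNA1*, the importin gene on the other side of *PARP9*, averaged 59.8 CPM and had a log2 fold change of 0.20 with IFNγ in siNC cells, which was not called. Among the genes that start within 250000 bases of the 3 members, only *AC083798.2* was called. It was lower with IFNγ in siNC (-0.69) and siPDL1-1 (-0.72) cells. Without IFNγ it was also called lower with siPDL1-2 than with siNC (-0.83) and higher with siPDL1-1 than with siPDL1-2 (0.98).

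Of 11 other PARP genes, 2 rose with IFNγ in siNC cells, 3 in siPDL1-1 cells and 2 in siPDL1-2 cells, and 0 fell. The median log2 fold change of the 11 in siNC cells was 0.20, beside 2.48 for 20 type I interferon-typical genes. *ZC3HAV1*, the antiviral zinc-finger protein without transferase activity also called PARP13, was at 53.0 and 51.8 CPM in unstimulated siNC libraries and at 109.3 and 109.3 CPM after IFNγ. With siPDL1-1 it went from 63.6 and 62.5 to 267.8 and 279 CPM, and with siPDL1-2 from 57.0 and 57.1 to 101.7 and 101.9 CPM. Its IFNγ effect was larger with siPDL1-1 than with siNC by 1.05 on the log2 scale (FDR 2.37e-08), so it was the other PARP called in the comparison that called *PARP10* and *PARP12*. *TNKS2*, a tankyrase, rose with IFNγ in siNC (0.65) and siPDL1-1 (0.78) cells, and *PARP3* rose in siPDL1-1 (0.69) and siPDL1-2 (0.71) cells.

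Of 8 genes that remove or read ADP-ribose, 6 were tested. *ADPRS*, a hydrolase that removes ADP-ribose, rose with IFNγ in siPDL1-1 (0.85) and siPDL1-2 (0.64) cells, and in siNC cells its log2 fold change of 0.49 (FDR 1.33e-05) was under the fold threshold. The reader *RNF146*, a ubiquitin ligase that binds poly-ADP-ribose, had 0.50 in siNC cells (FDR 5.29e-05), also under that threshold. The IFNγ effect with siPDL1-2 minus that with siNC was called for *RNF146* (-0.69, FDR 0.000201) and for *MACROD1*, a macrodomain hydrolase (0.65, FDR 0.00619). None of the 4 other Deltex genes was called for IFNγ. Of 8 genes of NAD supply, *NAMPT*, the enzyme that salvages nicotinamide, rose in siPDL1-1 cells (0.70). The erasers and the NAD genes had median log2 fold changes of 0.01 with IFNγ in siNC cells, beside 0.00 over all genes.

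Most genes typical of type I interferon were higher in siPDL1-1 cells, and few genes typical of IFNγ were called there. Without IFNγ, 12 of 20 type I interferon-typical genes were already called higher with siPDL1-1 than with siNC (median log2 fold change 0.73). Against siPDL1-2, 11 of 20 were. Of the members, 0 of 7 were called in either comparison, against 4% and 4.35% of all genes. *PARP14* (0.40), *PARP9* (0.29) and *DTX3L* (0.20) were higher than with siNC and passed the FDR, under the fold threshold. After IFNγ, 19 of 20 type I interferon-typical genes were higher with siPDL1-1 than with siNC (median log2 fold change 3.28), with *MX1* as the exception, and 2 of 20 were higher with siPDL1-2. Of 12 IFNγ-typical genes, 0 were called with siPDL1-1 (median -0.11) and 3 were lower with siPDL1-2, *CXCL9* (-0.95), *GBP4* (-0.70) and *GBP5* (-0.61). In the difference of the IFNγ effect with siPDL1-1, 19 of 20 type I interferon-typical genes were called higher (median 2.38), and of the 12 IFNγ-typical genes *GBP1* was (0.61). Of 14 signalling genes, 5 were higher and 1 lower with siPDL1-1 after IFNγ, and *USP18* (2.49) and *SOCS1* (1.67), both inhibitors of interferon signalling, had the largest increases. These lists were not set against the members in a test.

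Interferon mRNA itself was near the limit of counting. *IFNL1* had 59 and 36 reads in the siPDL1-1 libraries after IFNγ (1.67 and 1.69 CPM) and at most 1 read in any other library. *IFNB1* had 18 and 26 reads there and at most 2 reads elsewhere. In the same libraries the summed markers of other cell types were at 76.3 and 81.6 CPM, against 42.5 and 43.1 CPM with siNC, nearly all of it *CD68*, and the other 9 markers together stayed between 1.41 and 1.65 CPM. *CD68*, a lysosomal gene of macrophages that other cells also express, was 0.89 higher on the log2 scale with siPDL1-1 after IFNγ. The part of these transcripts in the higher *PARP10*, *PARP12* and *PARP9* was not tested.

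**Figure D5:**
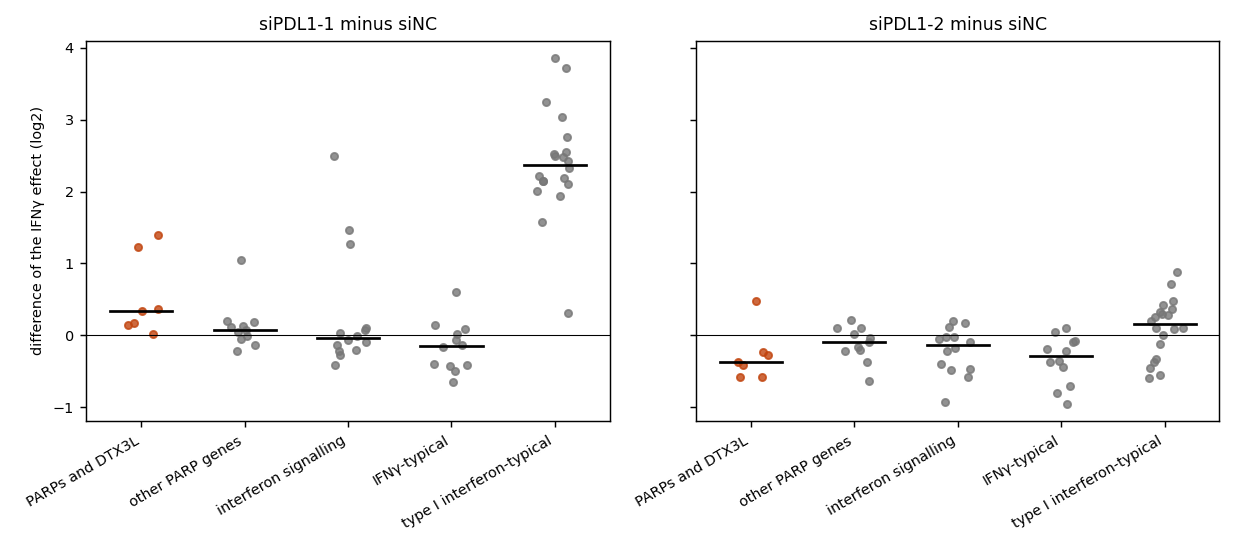
Difference of the IFNγ effect (log2, siRNA minus siNC) for the 7 genes and for the genes tested in 4 lists, 1 point per gene with a line at the median, for siPDL1-1 (left) and siPDL1-2 (right). With siPDL1-1 *PARP10* (1.39) and *PARP12* (1.23) lie below the type I interferon-typical median of 2.38 and above the IFNγ-typical median of -0.14. With siPDL1-2 the 7 genes have a median of -0.38.

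Across the 12 libraries the members fell near different genes. Likeness was measured as the root mean square difference of log2(CPM + 1) profiles, each centred on its own mean, over 17975 genes tested outside the member list. The closest profile to *PARP12* was that of *PLSCR1*, a phospholipid scramblase gene (0.09 log2 units), followed by *SHFL* (0.11). *PARP10* was closest to *LGALS9*, which encodes galectin-9 (0.12), and then to *SEC16B*. *PARP14* was closest to *APOBEC3G*, an antiviral cytidine deaminase gene (0.10), and then to *CFB*. *PARP9* was closest to *IFI35* and *TAP2* (0.14 each), and *DTX3L* to *NOD2* (0.12) and *AC116366.1*. *PARP11* was closest to *GCA* and *FGD6*, and *PARP8* to *LIMA1* and *PDP1*. Within the members, *PARP10* and *PARP12* were nearest to each other (0.25), as were *PARP9* and *DTX3L* (0.23) and *PARP8* and *PARP11* (0.19). Such distances also depend on how much a gene varies. The centred profiles of *PARP8* and *PARP11* had root mean squares of 0.39 and 0.40, against 1.15 to 1.41 for the genes of the other pairs. The smaller distance of *PARP8* and *PARP11* is thus the largest of the 3 relative to their variation.

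The order of the 6 conditions was shared at the top. For each of the 7 members the siPDL1-1 libraries after IFNγ were the highest and did not overlap those of the next condition. Among stimulated cells, such a gap over siNC was found for 31.5% of all genes and over siPDL1-2 for 25.5%, each taken alone. The share of genes highest over all other conditions was not counted. Among stimulated cells siPDL1-2 came second for *PARP9*, *PARP10* and *PARP8*, and siNC came second for *DTX3L*, *PARP14*, *PARP12* and *PARP11*. Neighbouring conditions overlapped only among unstimulated cells, for *DTX3L*, *PARP10*, *PARP11* and *PARP12*.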

How the data were processed

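The 12 libraries were grouped by sample title. Trimming, mapping (GRCh38, Ensembl genes), counting without regard to strand and normalization were done by the authors in CLC Genomics Workbench, per the methods. The deposited signal values are the resulting normalized CPM, with column totals that differ between libraries. A single read was worth 0.0187 to 0.0586 CPM, all values (100%) were a whole number of reads within a tolerance of 0.01, and those reads were used where counts were needed. The extraction kit and instrument differ between the methods and the labels.

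limma 3.58.1 (R 4.3.3; trend and robust) was fitted to log2(CPM + 1) of all genes that passed filterByExpr (recovered reads, minimum count 10 and total 15), with Benjamini-Hochberg FDR over all genes. Comparisons among stimulated cells used their 6 libraries (17148 genes) and the others all 12 (17982 genes). edgeR 4.0.16 and DESeq2 1.42.0 on the recovered reads were alternatives, as were other size factors, no filter, a pseudocount of 0.1, other thresholds, a replicate block and leaving out each library. In simulations with 200 changed genes, 199 of those changed by a log2 of 1 were recovered for siPDL1-1 against siNC after IFNγ. For the difference of its IFNγ effect 144 of 200 were recovered at 1 and 7 at 0.6. The simulations gave every gene the same spread between replicates beyond counting noise. The changed genes were taken from the better expressed ones, and all others were left unchanged. Recovery may thus differ for the members. Depth was 17101069 to 55657393 reads. The 2 libraries of each condition were not copies of each other (mean chi-square between replicates 1.85 to 7.76).

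All 7 members were named in every comparison. From the other lists the PARP genes were named, with at most 2 called genes per list and comparison, the genes starting within 250000 bases of the region's members, and the 2 genes most like each member. The members and lists were chosen with earlier results of these data known. Exon lengths and overlaps came from GENCODE, and promoters from RefSeq (GRCh38.p14). Values of 1 gene in the signalling list are not reported here.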

Additional observations from a re-analysis of the deposited data

Results flagged for a closer look

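With siPDL1-1, 2 of 7 members were called for the difference of the IFNγ effect, against 0.89% of all genes called higher. With siPDL1-2, 0 of 7 were called, against 7.62% of all genes in either direction. The effect was larger with siPDL1-1 than with siNC by 1.39 on the log2 scale for *PARP10* and by 1.23 for *PARP12*. *DTX3L* and *PARP9* with siPDL1-1, and *PARP14*, *PARP11* and *DTX3L* with siPDL1-2, passed the FDR only. Among the other PARP genes, the effect on *ZC3HAV1* was larger with siPDL1-1 by 1.05, and the effect on *TNKS2* was smaller with siPDL1-2 (difference -0.64). *TNKS2* was at 91.1 and 87.8 CPM in unstimulated siNC libraries and 139.9 and 141.4 CPM after IFNγ, and at 127.3 and 129.3 CPM and 132.8 and 125.9 CPM with siPDL1-2.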

How the results depend on the processing

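The counts of members called were the same with the size factors or the Wald test of DESeq2, no filter, a pseudocount of 0.1 and fits on only the libraries compared, and edgeR differed in 1 member (*DTX3L*, siPDL1-1 after IFNγ). An FDR under 0.05 with no fold threshold gave, without IFNγ, 4 members for siPDL1-1 (28.9% of all genes), 5 for siPDL1-2 (40.8%) and 1 between them (36.7%). It gave 5 for each siRNA after IFNγ (28% and 21.9%), and 4 and 7 for the differences of the IFNγ effect with siPDL1-1 (3.18%) and siPDL1-2 (29.6%). All 12 libraries in 1 fit gave 2 for both siRNAs pooled, against 636 of 17982 genes. Leaving out each library gave log2 fold changes of 0.55 to 0.59 for *DTX3L* with siPDL1-1 after IFNγ. For the difference with siPDL1-2 it gave -0.62 to -0.54 for *PARP14* and -0.72 to -0.44 for *PARP11*. These ranges cross the fold threshold. Leaving out a library also changed the sign of 3 values that were not called. These were *PARP11* with siPDL1-1 unstimulated (-0.18 to 0.096, above 0 without siNC library 2 or siPDL1-1 library 1), *PARP10* with siPDL1-2 unstimulated (-0.16 to 0.051, above 0 without siNC library 2) and the *PARP8* difference with siPDL1-1 (-0.063 to 0.095). A fit that leaves a condition with 1 library assumes that it varies like the others. Over all genes, siPDL1-2 after IFNγ had 499 calls, and 172 and 143 without either of its stimulated libraries, and siPDL1-1 against siPDL1-2 had 362, and 224 and 213. The pooled comparison had 298 calls, 614 with DESeq2, 119 with no filter, 636 with all 12 libraries and 14 to 291 without a library. The difference with siPDL1-2 had 1370 calls and 890 without the second stimulated siPDL1-2 library. An FDR under 0.05 alone gave between 572 and 7338 genes in the 12 comparisons. Replicate numbers did not pair the libraries (correlations of deviations from -0.19 to 0.25 over 15 pairs of conditions, 2 of them over 0.1). The replicate block left every member's call as it was, and the pooled comparison had 121 calls over all genes. A crossed pairing, chosen after seeing the data, changed no member's call in the 2 comparisons where it was run. A log2 change of 0.6, just over the fold threshold, was often missed in simulation, with 79 of 200 recovered for siPDL1-1 after IFNγ (median estimate 0.578). Estimates under the fold threshold are not called, and other numbers of libraries per condition were not simulated. The causes of these differences were not tested.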

Other observations

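*PARP1*, the DNA-damage PARP that makes most poly-ADP-ribose in cells, was lower with both *PD-L1* siRNAs. It was at 259.1 and 267.6 CPM in unstimulated siNC libraries, 162.9 and 161.9 with siPDL1-1 and 126.6 and 127.2 with siPDL1-2. After IFNγ it was at 247.5 and 250.8, 151.5 and 145.4, and 123.3 and 120.6 CPM. The groups did not overlap, and the log2 fold changes were -0.69 and -1.05 without IFNγ and -0.74 and -1.03 after it, all called by limma. It was the only one of 11 other PARP genes called for both siRNAs pooled after IFNγ (-0.88, FDR 0.00142). *PARP1* was not called for IFNγ in any siRNA group.

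*QPRT*, an enzyme of NAD synthesis from quinolinate, was called higher without IFNγ with siPDL1-1 (1.00) and siPDL1-2 (0.78), from 0.245 and 0.531 CPM in siNC libraries to 1.86 and 1.67 CPM with siPDL1-1.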
